A study of Arabis alpina with 12 samples.

Results

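UFO, CRC and KNATM are genes whose Arabidopsis counterparts shape floral organs, carpels and organ boundaries, and their transcript levels were read here in Arabis alpina, a perennial relative of Arabidopsis. They were taken by identifier, as Aa_G355720h1 (UFO), Aa_G690520h1 (CRC) and Aa_G777300h1 (KNATM), which makes 3 of the 34220 genes in the deposited count table. All 3 were among the 19520 genes that passed the filter on low counts. The genes were selected on their difference between genotypes in V3 buds, as fitted and as deposited by the authors. That difference, and the difference between the bud and the apex response, are therefore given as descriptions without a test. The names come from the authors' lists, which pair identifiers with Arabidopsis orthologues, and each of the 3 identifiers had a single entry in the table.

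The 4 groups were V3 buds of Aatoe2_IL, V3 buds of wild type, shoot apices of Aatoe2_IL and shoot apices of wild type, with 3 libraries of poly(A) RNA each. All plants were of the accession Pajares and had spent 8 weeks in long days followed by 8 weeks of vernalization in short days, and no group without vernalization was used here. Aatoe2_IL is named for AaTOE2, an APETALA2-like transcription factor; its lesion is not stated in the labels, and no other line affected in AaTOE2 was used, so that AaTOE2 and any further difference of the line cannot be told apart. The buds were taken to look at axillary branches and the apices to look at flowering, according to the series' design text. The labels number the replicates without stating that they were separate plants, so the p-values speak only of the spread among libraries, which may be technical.

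In Arabidopsis, UFO encodes an F-box protein, the substrate-binding subunit of a ubiquitin ligase, which acts with the transcription factor LEAFY to switch on petal and stamen identity genes. CRC encodes a YABBY transcription factor needed for carpel form, for nectaries and for ending the growth of the floral meristem. KNATM encodes a KNOX-type protein that has the protein-binding MEINOX domain but no homeodomain; it binds BELL-type proteins and is active at organ boundaries and in leaf development. In bulk tissue, fewer cells that express a gene and less RNA per cell cannot be told apart.

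Reads in genes came to between 9411616 and 12309478 per library, and no pair of libraries held identical counts. Levels are given in CPM, reads of a gene scaled to the library's total in the tested genes after TMM normalization. On the second principal component of log CPM the Aatoe2_IL replicate 1 libraries lay nearer to wild type, at -10.4 in the bud and 2.41 in the apex, than the other Aatoe2_IL libraries, at -37.0 and -32.5 in buds and -29.1 and -22.1 in apices. The defining markers of the shoot meristem, WUS, CLV3, CLV1 and STM, were not paired with an identifier in the authors' lists, so the labelled tissue was not checked with them.

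UFO was low in Aatoe2_IL buds, at 9.14, 10.7 and 6.78 CPM in replicates 1, 2 and 3, which correspond to 85, 113 and 62 reads. In wild-type buds it had 29.3, 30.5 and 35.5 CPM, from 291, 293 and 355 reads. The lowest wild-type bud thus lay well above the highest Aatoe2_IL bud. In apices UFO had 19.6, 15.7 and 14.9 CPM in Aatoe2_IL and 15.1, 10.02 and 14.6 CPM in wild type, and these ranges overlapped. The order of the group means was wild-type bud (31.8 ± 3.29 CPM), Aatoe2_IL apex (16.8 ± 2.52), wild-type apex (13.2 ± 2.79) and Aatoe2_IL bud (8.87 ± 1.98; SD, n = 3 each). Neighbouring groups overlapped except for the wild-type bud, which stood above all others.

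CRC ran the other way in buds. In Aatoe2_IL buds it had 17.4, 23.2 and 25.03 CPM, from 162, 245 and 229 reads, against 6.76, 5.52 and 5.90 CPM in wild-type buds, from 67, 53 and 59 reads. The lowest Aatoe2_IL bud was above the highest wild-type bud. Apices held more CRC than buds of the same genotype, with 31.1, 36.3 and 48.8 CPM in Aatoe2_IL apices and 21.4, 30.6 and 29.5 CPM in wild-type apices. The highest wild-type apex (30.6 CPM) came just below the lowest Aatoe2_IL apex (31.1 CPM). The means ran in the order Aatoe2_IL apex (38.8 ± 9.12 CPM), wild-type apex (27.2 ± 5.03), Aatoe2_IL bud (21.9 ± 3.97) and wild-type bud (6.06 ± 0.634; SD, n = 3 each). The wild-type apex and the Aatoe2_IL bud overlapped, and the wild-type bud lay apart from the rest.

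KNATM was higher in buds than in apices of either genotype. Aatoe2_IL buds had 7.74, 6.54 and 4.48 CPM, from 72, 69 and 41 reads, against 19.3, 25.6 and 23.6 CPM in wild-type buds, from 191, 246 and 236 reads. Both apex groups rested on few reads, with 2.87, 2.24 and 1.62 CPM in Aatoe2_IL apices (33, 22 and 17 reads) and 1.64, 1.64 and 1.44 CPM in wild-type apices (21, 19 and 17 reads). The order of means was wild-type bud (22.8 ± 3.25 CPM), Aatoe2_IL bud (6.25 ± 1.65), Aatoe2_IL apex (2.24 ± 0.625) and wild-type apex (1.57 ± 0.118; SD, n = 3 each). Only the last neighbours in this order, the 2 apex groups, overlapped.

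**Figure D1:**
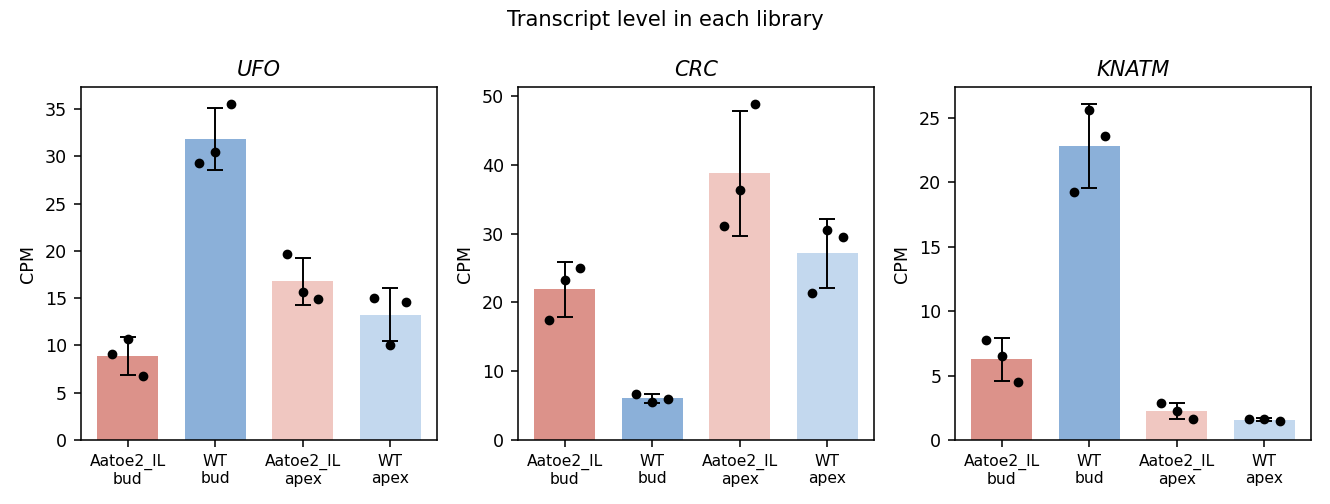
Transcript level in CPM (vertical axis, linear, starting at 0) of UFO, CRC and KNATM in each group; bars are means, error bars SD and points the 3 libraries of a group. UFO and KNATM are highest in wild-type buds (31.8 and 22.8 CPM), whereas CRC is lowest there (6.06 CPM).

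Between the genotypes in buds, the contrast on which the genes were chosen, UFO was lower in Aatoe2_IL by a fitted log2 fold change of -1.83 (SE 0.19), KNATM by -1.86 (SE 0.21), and CRC was higher by 1.85 (SE 0.21). Among the 19520 genes tested, UFO ranked 70th and KNATM 67th from the lowest bud fold change, and CRC 143rd from the highest. For orientation, 4.95% of all genes tested passed edgeR's test in buds at an adjusted p under 0.05, and the groups did not overlap for 22.1% of them. In the authors' deposited table for buds, UFO had mean normalized counts of 86.2 in Aatoe2_IL and 307.63 in wild type, a fold of 0.28. The same table gave CRC 212.64 in Aatoe2_IL and 58.58 in wild type, a fold of 3.63, and KNATM 60.75 in Aatoe2_IL and 220.94 in wild type, a fold of 0.275. These ratios correspond to log2 values of -1.84, 1.86 and -1.86 in the authors' deposited table and lie within 0.01 of the fitted ones.

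In the apex none of the 3 genes passed edgeR's test, against 1.1% of all genes tested (0.292% higher and 0.809% lower in Aatoe2_IL). UFO had a log2 fold change of 0.34 in Aatoe2_IL apices relative to wild type (SE 0.18, 95% interval -0.049 to 0.73, edgeR adjusted p = 0.378). KNATM stood at 0.52 (SE 0.29, interval -0.10 to 1.13, edgeR adjusted p = 0.399) on no more than 33 reads in any apex library. For CRC the value was 0.51 (SE 0.18, interval 0.13 to 0.89, edgeR adjusted p = 0.175), and every Aatoe2_IL apex was above every wild-type apex, as was the case in that direction for 9.95% of all genes. CRC passed at 0.65 (edgeR adjusted p = 0.0450) when both Aatoe2_IL replicate 1 libraries were left out, and its adjusted p ranged up to 0.533 over the other alternatives. By the intervals, which are not adjusted over genes, CRC was the single one of the 3 whose interval left out 0, and DESeq2 called none of the 3 on all libraries. None of the 3 genes was in the authors' lists for the apex.

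The response in buds minus the response in apices, again a description, came to -2.18 for UFO (SE 0.26), -2.38 for KNATM (SE 0.36) and 1.34 for CRC (SE 0.28) on the log2 scale. KNATM was 17th and UFO 26th from the lowest of the 19520 genes by this value, and CRC 415th from the highest. By edgeR 1.03% of all genes passed in this contrast, 0.763% with a positive and 0.272% with a negative value. In UFO and KNATM the bud difference was thus opposite in sign to the apex estimate, whereas in CRC both pointed upward and the bud value was larger.

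**Figure D2:**
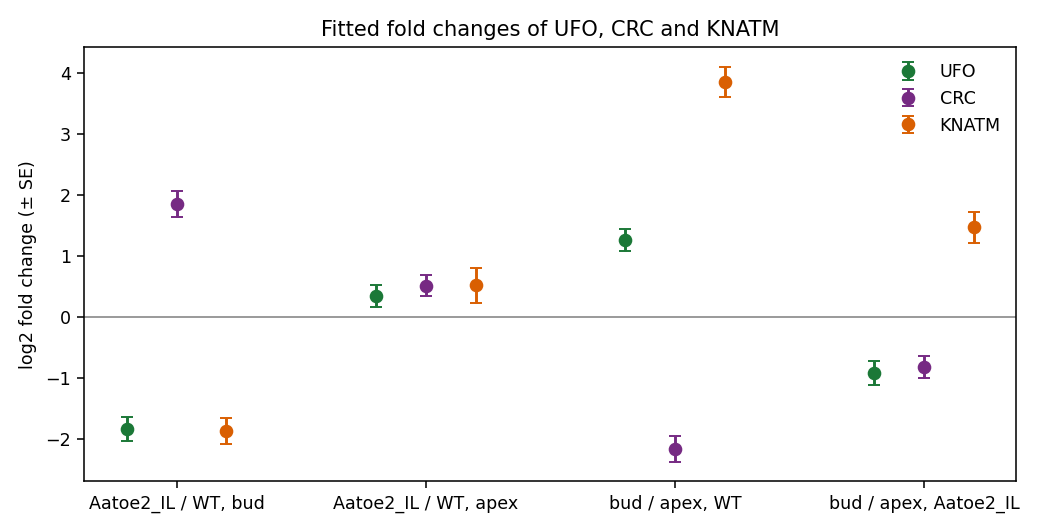
Fitted log2 fold change (vertical axis) of UFO, CRC and KNATM, with SE as error bars, in Aatoe2_IL against wild type in buds and in apices and in buds against apices in wild type and in Aatoe2_IL. The bud genotype values of -1.83, 1.85 and -1.86 stand beside apex values between 0.34 and 0.52; the wild-type tissue values reach 3.85 for KNATM.

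Buds and apices of the same genotype differed in all 3 genes in both genotypes, against 11.2% of all genes tested in wild type (4.86% higher and 6.33% lower in buds) and 5.67% in Aatoe2_IL (3.17% higher and 2.5% lower). In all 6 of these comparisons the libraries of the tissues did not overlap, which held for 27.5% of all genes in wild type and 22.7% in Aatoe2_IL. These comparisons share their bud libraries with the contrast on which the genes were chosen, so they are not independent of that choice. How far the tissue difference differs between the genotypes is the same quantity as the bud response minus the apex response. It is therefore a description here too, for all 3 genes. KNATM was 14.4-fold higher in wild-type buds than in wild-type apices (log2 fold change 3.85, SE 0.24, edgeR adjusted p = 2.48e-07), which ranked 35th of 19520 genes from the highest. In Aatoe2_IL it was 2.77-fold higher in buds than in apices (log2 fold change 1.47, SE 0.25, edgeR adjusted p = 0.00249). KNATM was therefore higher in buds than in apices in both genotypes. Its smaller value in Aatoe2_IL restates the bud response minus the apex response and is a description.

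CRC was lower in buds than in apices in both genotypes. The log2 fold change was -2.16 in wild type (SE 0.21, edgeR adjusted p = 1.06e-05), the 210th lowest of all genes tested, and -0.82 in Aatoe2_IL (SE 0.18, edgeR adjusted p = 0.0138). In Aatoe2_IL the call of CRC was lost without apex replicate 3 (-0.62, edgeR adjusted p = 0.0860) and without bud replicate 1 (edgeR adjusted p = 0.0615).

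UFO was the gene whose tissue difference had opposite signs in the 2 genotypes. This contrast between the genotypes is likewise a description, as it restates the bud response minus the apex response. In wild type it was higher in buds than in apices, where the log2 fold change was 1.26 (SE 0.18, edgeR adjusted p = 0.000296). In Aatoe2_IL it was lower in buds than in apices, where the log2 fold change was -0.91 (SE 0.19, edgeR adjusted p = 0.0100). That second call was lost without Aatoe2_IL bud replicate 3 (-0.75, edgeR adjusted p = 0.0564) and without both Aatoe2_IL replicate 1 libraries (-0.80, edgeR adjusted p = 0.0863). With the replicate number as a block within genotype, all 3 genes kept their calls in Aatoe2_IL, at edgeR adjusted p of 0.00037 for UFO, and the number of genes called over the whole table was 2378 in place of 1107.

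Ratios of reads within a library need no scaling between libraries. They are not relative abundances, because no gene lengths were used. UFO, CRC and KNATM were chosen for their bud difference between genotypes, so the bud ratios restate that choice and support nothing further. UFO reads per CRC read were 0.525, 0.461 and 0.271 in Aatoe2_IL buds against 4.34, 5.53 and 6.02 in wild-type buds. In apices the ratio was 0.631, 0.433 and 0.306 in Aatoe2_IL and 0.704, 0.328 and 0.496 in wild type. By this ratio Aatoe2_IL bud replicates 1 and 2 lay in the range of the apices of both genotypes. Replicate 3, at 0.271, lay below every apex. The means were 0.419 ± 0.132 in Aatoe2_IL buds, 0.457 ± 0.164 in Aatoe2_IL apices and 0.509 ± 0.189 in wild-type apices. Wild-type buds stood alone at 5.30 ± 0.861 (SD, n = 3 each).

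KNATM reads per UFO read split the libraries by tissue instead. The ratio was 0.847, 0.611 and 0.661 in Aatoe2_IL buds and 0.656, 0.840 and 0.665 in wild-type buds, which overlapped. It was 0.146, 0.143 and 0.108 in Aatoe2_IL apices and 0.109, 0.164 and 0.0983 in wild-type apices, which overlapped as well and lay below every bud. The means were 0.706 ± 0.124 in Aatoe2_IL buds, 0.720 ± 0.103 in wild-type buds, 0.132 ± 0.0209 in Aatoe2_IL apices and 0.124 ± 0.0352 in wild-type apices (SD, n = 3 each). The likeness of the bud groups restates the bud fold changes of -1.83 and -1.86, on which UFO and KNATM were chosen.

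**Figure D3:**
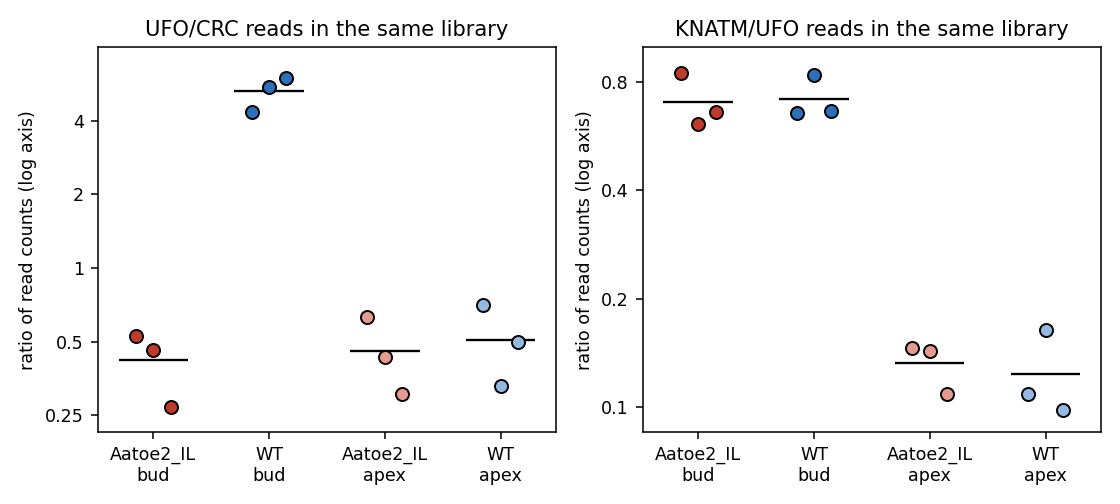
Reads of UFO per read of CRC (left) and of KNATM per read of UFO (right) within each library, on log axes; points are libraries and lines group means. The left ratio sets wild-type buds (mean 5.30) apart from the other groups, and the right one sets buds (means 0.706 and 0.720) apart from apices (0.132 and 0.124).

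The libraries of a group varied by a pooled SD of 0.262 for UFO, 0.266 for CRC and 0.296 for KNATM on the log2 CPM scale. By mean log2 CPM the genes lay at the 39.5th, 44.5th and 18.8th percentile of all genes tested. Among Aatoe2_IL buds, replicate 3 had the lowest UFO and KNATM and the highest CRC. It also had the highest level of the leaf gene LHCB1.3 (4641 CPM, against 3034 and 3640 in the other 2). The phloem genes SEOR1 and SEOR2 were instead highest in bud replicate 1. Without bud replicate 3 the bud log2 fold changes were -1.67 for UFO, -1.67 for KNATM and 1.75 for CRC. Replicate 3 likewise had the lowest UFO and KNATM and the highest CRC among Aatoe2_IL apices. LHCB1.3 was highest in apex replicate 2 (2996 CPM, against 2833 in replicate 3), and SEOR1 and SEOR2 were lowest in apex replicate 3. Without apex replicate 3 the apex log2 fold changes were 0.42 for UFO, 0.70 for KNATM and 0.31 for CRC. Whether these joint shifts have a common source was not tested.

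Genes of the pathways around the 3 were taken from lists of floral meristem, floral organ, carpel and YABBY, KNOX and BELL, organ boundary, shoot meristem and leaf or vascular genes, 112 genes in all. The authors' lists paired 15 of them with an identifier, 12 besides UFO, CRC and KNATM, and all 12 were tested. A gene had a name only if the authors had listed it as changed in these samples, so the counts are not independent evidence of a direction. In buds 9 of the 12 rose in Aatoe2_IL, none fell and 3 did not pass, with a median log2 fold change of 1.15 against -0.0095 over all genes tested; 2.98% of all genes rose and 1.97% fell. In apices 1 rose, none fell and 11 did not pass (median 0.04, over all genes -0.0042), where 0.292% of all genes rose and 0.809% fell. Between wild-type buds and apices 7 of the 12 were lower in buds and 5 did not pass (median -1.06, over all genes 0.0076), where 6.33% of all genes were lower; the 7 were AP1, AGL6, TOE3, SAW1, SAW2, SEOR1 and SEOR2. The call of AP1, with 2 reads over the wild-type buds, was lost without wild-type bud replicate 2 (edgeR adjusted p = 0.0544), and that of SAW2 without wild-type apex replicate 2 or wild-type bud replicate 2 or 3 (edgeR adjusted p up to 0.0925). Between the tissues of Aatoe2_IL 1 of the 12 was higher in buds, 2 were lower and 9 did not pass (median -0.15, over all genes -0.0078), where 3.17% of all genes were higher and 2.5% lower; TCP4 was the higher one, and AP1 and TOE3 were lower.

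Partners and regulators of KNOX-type proteins gave 3 named genes besides KNATM, of 24 in the list, of which 2 rose in Aatoe2_IL buds and 1 did not pass. SAW1, a BELL-type homeodomain gene whose product limits KNOX gene expression in Arabidopsis leaves, had 8.82, 9.09 and 14.98 CPM in the Aatoe2_IL buds, against 4.44, 3.75 and 4.10 CPM in those of wild type. The groups were apart, and the log2 fold change was 1.41 (SE 0.22, edgeR adjusted p = 0.00181). In apices SAW1 had 7.56, 6.01 and 7.05 CPM in Aatoe2_IL against 10.2 to 11.1 CPM in wild type, a log2 fold change of -0.65 that did not pass (SE 0.20, edgeR adjusted p = 0.136). The bud response minus the apex response passed for SAW1, at 2.06 (SE 0.29, edgeR adjusted p = 0.00587), where 0.763% of all genes passed in that direction. In wild type SAW1 was lower in buds than in apices (-1.39 on the log2 scale; edgeR adjusted p = 0.000521), the direction opposite to KNATM.

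SAW2, a close relative of SAW1 with the same role, had 37.4, 24.7 and 27.7 CPM in Aatoe2_IL buds and 19.9, 13.2 and 11.4 CPM in wild-type buds. Its bud log2 fold change was 1.01 (SE 0.19, edgeR adjusted p = 0.00732), and the apex value of -0.083 did not pass (edgeR adjusted p = 0.858). OFP1, an ovate family gene whose product binds KNOX and BELL proteins, was the member of the list that did not pass, with 3.603 ± 0.996 CPM in Aatoe2_IL buds and 7.21 ± 2.82 CPM in wild-type buds (SD, n = 3 each). Its log2 fold change was -1.01 in buds (SE 0.34, edgeR adjusted p = 0.105) and -1.13 in apices (SE 0.34, edgeR adjusted p = 0.124). The groups did not overlap in either tissue, which held for 22.1% of all genes in buds and 20.8% in apices.

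Both named genes of the organ boundary and leaf polarity list, of 14 in it, rose in Aatoe2_IL buds. AS2, which encodes a LOB-domain repressor of KNOX genes in Arabidopsis leaves, had 10.04 ± 0.846 CPM in Aatoe2_IL buds and 5.01 ± 0.348 CPM in wild-type buds (SD, n = 3 each; log2 fold change 1.00, SE 0.20, edgeR adjusted p = 0.00906). TCP4, which encodes a TCP transcription factor that promotes cell differentiation in leaves, had 43.9 ± 11.02 CPM in Aatoe2_IL buds and 19.4 ± 4.04 CPM in wild-type buds (SD, n = 3 each; log2 fold change 1.18, SE 0.20, edgeR adjusted p = 0.00406). In apices neither passed, with log2 fold changes of 0.16 for AS2 (edgeR adjusted p = 0.711) and -0.29 for TCP4 (edgeR adjusted p = 0.512).

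Among floral genes, the YABBY and carpel list of 22 genes had no named member besides CRC. Of the 18 floral meristem genes AP1, which specifies the floral meristem, was the single named one besides UFO, and its 1 read over the Aatoe2_IL buds and 2 over the wild-type buds gave no fold change. Of the 17 floral organ genes 3 were named and 2 rose in Aatoe2_IL buds. AGL6, a MADS-box gene, had 178 reads over the Aatoe2_IL buds and 3 over the wild-type buds, all in replicate 1, a ratio of 60.4 (95% counting interval 20.3 to 296). TOE3, an APETALA2-like gene, had 5.96 ± 1.11 CPM in Aatoe2_IL buds and 1.999 ± 0.670 CPM in wild-type buds (SD, n = 3 each). Its log2 fold change was 1.57 (SE 0.32, edgeR adjusted p = 0.0114), a call that was lost without wild-type bud replicate 2 (edgeR adjusted p = 0.0551). In apices AP1 (log2 fold change 1.56, SE 0.46, edgeR adjusted p = 0.124) and AGL6 (0.99, SE 0.44, edgeR adjusted p = 0.281) did not pass. Neither did TOE3 (0.43, SE 0.25, edgeR adjusted p = 0.414). AGL6 passed there when both Aatoe2_IL replicate 1 libraries were left out.

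SHP2, a MADS-box gene that acts in carpels as CRC does, was the list gene that rose in Aatoe2_IL apices. It had 1.04, 1.84 and 1.52 CPM in Aatoe2_IL apices, from 46 reads in all, against 0.156, 0.0864 and 0.507 CPM in wild-type apices, from 9 reads. The log2 fold change was 2.49 (SE 0.53, edgeR adjusted p = 0.0381), and without wild-type apex replicate 3 it was 3.45. The call was lost without Aatoe2_IL apex replicate 2 or 3 or wild-type apex replicate 1 or 2, with an edgeR adjusted p of up to 0.205, and in a fit of the compared libraries alone (edgeR adjusted p = 0.0873). In buds SHP2 had 13 reads over the Aatoe2_IL and 7 over the wild-type libraries and did not pass (log2 fold change 0.89, edgeR adjusted p = 0.518).

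The named markers of green leaf and of phloem were higher in Aatoe2_IL buds, in the direction of CRC and opposite to UFO and KNATM. Of the 14 markers in the list 3 had an identifier, and all 3 rose, against 2.98% of all genes tested. A marker had an identifier only if the authors had listed it as changed in these samples, so the count is not independent evidence. The light-harvesting gene LHCB1.3 ranged between 3034 and 4641 CPM in Aatoe2_IL buds and between 1690 and 1821 CPM in wild-type buds (log2 fold change 1.12, SE 0.18, edgeR adjusted p = 0.00243). SEOR1 and SEOR2, which encode proteins of phloem sieve elements, summed to between 24.1 and 37.1 CPM in Aatoe2_IL buds and between 8.61 and 17.0 CPM in wild-type buds. In apices the phloem sum was 36.0 to 58.3 CPM in Aatoe2_IL and 73.8 to 74.7 CPM in wild type, and LHCB1.3 was 2215 to 2996 CPM in Aatoe2_IL and 1456 to 2210 CPM in wild type. None of the 3 passed in apices, and none was at 0 in any group. The part of tissue makeup in the values of UFO, CRC and KNATM was not tested.

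**Figure D4:**
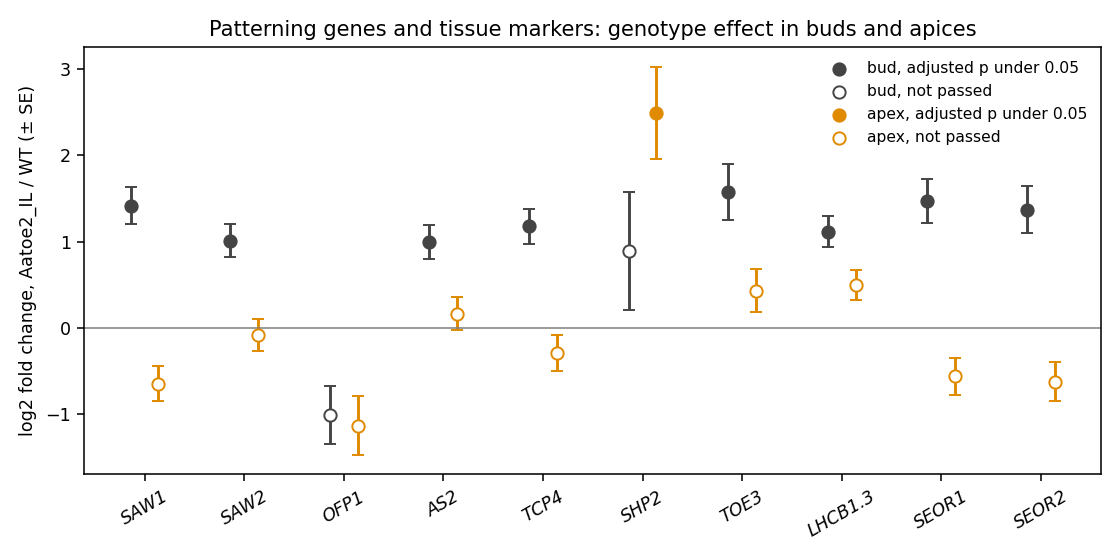
Fitted log2 fold change in Aatoe2_IL against wild type (with SE) in buds and in apices for 10 list genes. Filled symbols passed edgeR's test. AP1 and AGL6 are not drawn because they had bud groups of at most 3 reads. Their apex values of 1.56 and 0.99 did not pass. In buds SAW1 (1.41), SAW2 (1.01), AS2 (1.00), TCP4 (1.18), TOE3 (1.57), LHCB1.3 (1.12), SEOR1 (1.47) and SEOR2 (1.37) are filled, and in apices SHP2 (2.49) alone.

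Genes with the most similar profile were found from the root mean square (RMS) difference in log2 CPM over the 12 libraries, after each gene's own mean had been subtracted. Among 19517 genes the closest to UFO was TTL2, a tetratricopeptide gene, at an RMS difference of 0.239 log2 units, where the median over all genes was 0.735. TTL2 averaged 1.26 CPM in Aatoe2_IL buds, 3.76 in wild-type buds, 1.82 in Aatoe2_IL apices and 1.52 in wild-type apices. The next named genes were DUF2 (RMS difference 0.334), AT5G20400 (RMS difference 0.339) and BEN1 (RMS difference 0.350), a gene whose product lowers brassinosteroid levels, and the closest without a name was Aa_G109270h1 (RMS difference 0.317).

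The gene closest to CRC was AT3G18280, at an RMS difference of 0.249 against a median of 1.03. It averaged 43.3 CPM in Aatoe2_IL buds, 14.8 in wild-type buds, 77.2 in Aatoe2_IL apices and 73.7 in wild-type apices. AT5G44578 (RMS difference 0.311), MVQ4 (RMS difference 0.354), which encodes a VQ-motif protein, and the ion channel gene CNGC3 (RMS difference 0.366) followed among named genes, and Aa_G323250h1 (RMS difference 0.307) was the closest without a name.

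KNATM had no neighbour as close in log2 units, though its median over all genes was also larger than those of UFO and CRC. The nearest gene, Aa_G149510h1, had an RMS difference of 0.490 against a median of 1.48, and the nearest named one was the glucosyltransferase gene UGT85A1 at 0.545, which averaged 7.13 CPM in Aatoe2_IL buds, 16.6 in wild-type buds, 2.47 in Aatoe2_IL apices and 2.01 in wild-type apices. The trehalose phosphatase gene TPPI (RMS difference 0.575), the zinc finger gene WIP5 (RMS difference 0.601) and AT5G37160 (RMS difference 0.633) came next. Among the 3 genes themselves the RMS difference was 1.21 between UFO and KNATM, 1.58 between UFO and CRC and 2.43 between CRC and KNATM, so that none was among the closest neighbours of another. These values are descriptions over libraries that share their groups, and named genes are those the authors had listed as changed.

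**Figure D5:**
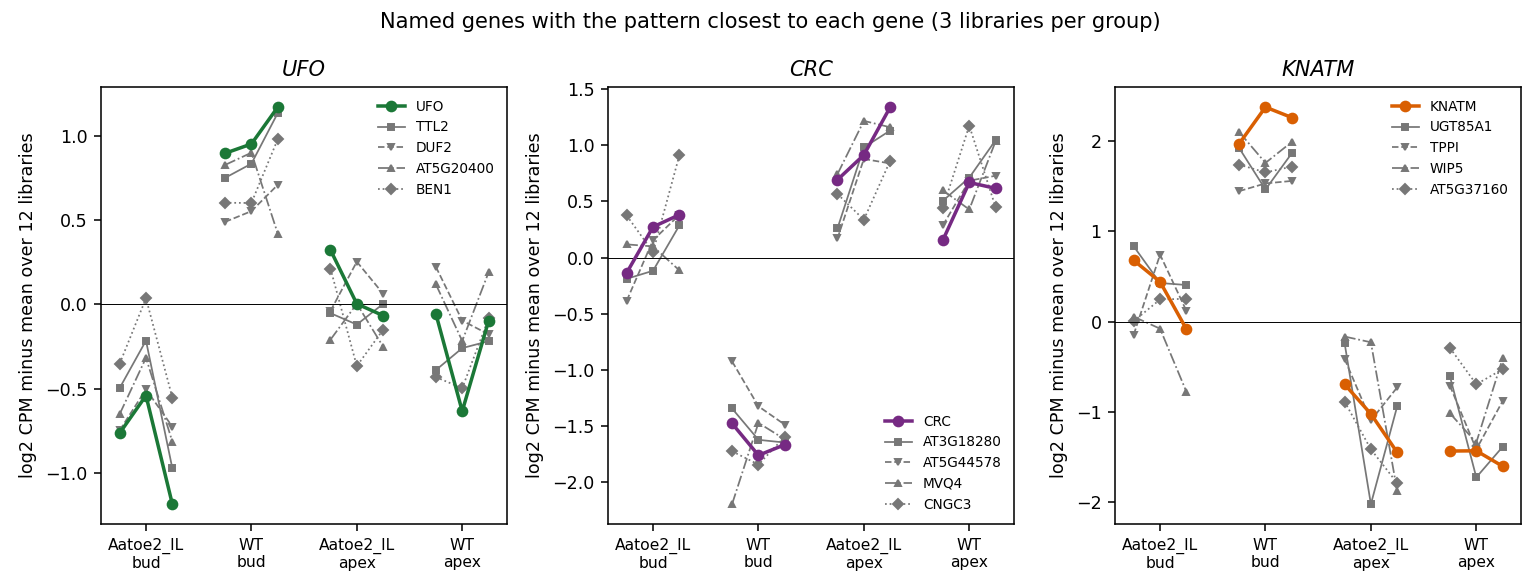
Log2 CPM minus the gene's mean over the 12 libraries (vertical axis) for UFO, CRC and KNATM in colour and their 4 closest named genes in grey; points are libraries, and lines join the libraries of a group only to mark the gene. The neighbours of UFO and KNATM are highest in wild-type buds and those of CRC lowest there, which follows from choosing them by likeness over these libraries. TTL2 (0.239) and AT3G18280 (0.249) run closest to their gene.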

How the data were processed

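The deposited count table gave raw read counts per gene for 12 libraries, not normalized by the authors. It also held 5 counters of reads not assigned to a gene, which were left out. The counter of reads in no gene made up 13.4% to 21.5% of the reads in genes, in no gene or ambiguous between genes. In all, 9002 genes had no count in any library. Libraries came from a strand-specific kit and were read as single 100 bp reads, per the labels' protocols. STAR, HTSeq 0.5.4p1, DESeq and DESeq2 are named without roles in the submitters' processing notes; no source used here gives the genome build, the annotation or how strand was treated in counting, so overlapping genes are uncertain and no sequence or coordinate is printed. The authors' deposited lists of genes changed between genotypes held group means of normalized counts (a signal), their ratio (fold), its log2 value and an adjusted p-value, per the file headers; their 626 identifiers, 445 with an orthologue, lack the final h number, and all had a row in the count table. No column of another sample was present (0 unused columns).

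edgeR 4.0.16 in R 4.3.3 was used for the quasi-likelihood F test on the deposited counts (TMM, default filter on low counts, 1 fit of 4 groups, 8 residual degrees of freedom, common biological coefficient of variation 0.130). The threshold was a Benjamini-Hochberg adjusted p of 0.05 over all 19520 genes tested. SE is the absolute log2 fold change over the square root of F. The 95% intervals use the residual degrees of freedom plus the prior ones that edgeR estimates over all genes. Log2 CPM for profiles used a prior count of 2. Counting intervals are exact and cover counting error only. The fit was tested on simulated data. Alternatives were DESeq2 1.42.0, its size factors in edgeR, no filter, fits on the compared libraries, the replicate number as a block, and leaving out libraries.

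Members and gene lists were chosen with earlier results of these data known. Named genes are the 3 members, every list gene with an identifier in the authors' lists, and, per member, the 4 named genes and 1 unnamed gene with the smallest RMS difference. Same-numbered libraries were checked for pairing by the correlation of their deviations from group means. Between the tissues of Aatoe2_IL it was 0.415, 0.320 and 0.239, which counts as paired. Between the wild-type tissues it was 0.355, 0.0622 and 0.248 in replicates 1, 2 and 3, so pairing is unclear there. Between genotypes it was at most 0.0998, which does not count as paired. The main fit used no block.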

Additional observations from a re-analysis of the deposited data

Results flagged for a closer look

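Among the list genes, 4 differed between tissues in their response to genotype, by edgeR's test of the bud response minus the apex response, of 12 tested, where 1.03% of all genes passed and 0.763% passed with a positive value. These genes had names only because the authors listed them as changed between the genotypes in these samples, so the count is not independent evidence. With the replicate number as a block within genotype, the same 4 passed and so did AGL6, SAW2, TOE3, AS2 and LHCB1.3, with edgeR adjusted p up to 0.0404. In that fit 1986 of all 19520 genes passed. The check of pairing backed such a block for Aatoe2_IL and was unclear for wild type. AGL6 and SAW2 also passed without a filter, by DESeq2 and with the replicate number as a plain block. AGL6 passed as well without both Aatoe2_IL replicate 1 libraries. With single libraries left out, AGL6 passed in 1 fit and SAW2 in 2. SAW1 had a difference of 2.06 in log2 units (SE 0.29, edgeR adjusted p = 0.00587), with 10.96 ± 3.48 CPM in Aatoe2_IL buds, 4.10 ± 0.345 in wild-type buds, 6.87 ± 0.788 in Aatoe2_IL apices and 10.8 ± 0.496 in wild-type apices (SD, n = 3 each). SEOR1 had a difference of 2.03 (SE 0.33, edgeR adjusted p = 0.0143) and SEOR2 one of 1.99 (SE 0.36, edgeR adjusted p = 0.0204). TCP4 had a difference of 1.47 (SE 0.29, edgeR adjusted p = 0.0289). SAW1 and SEOR1 passed without each library in turn, with edgeR adjusted p up to 0.0283 and 0.0441. SEOR2 did not pass without Aatoe2_IL apex replicate 3, wild-type apex replicate 2 or 3, Aatoe2_IL bud replicate 1 or 3 or wild-type bud replicate 2 (edgeR adjusted p up to 0.0615). TCP4 did not pass without replicate 2 or 3 of either apex group, Aatoe2_IL bud replicate 1 or 3 or wild-type bud replicate 2 (edgeR adjusted p up to 0.0927). Neither SEOR2 nor TCP4 passed without both Aatoe2_IL replicate 1 libraries. Groups of 3 libraries were not tested for a single deviating library.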

How the results depend on the processing

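Of 201 alternatives to the 15 fold changes of UFO, CRC and KNATM, 196 counted as unchanged, 4 lost a call, 1 gained one and 0 reversed. For the apex genotype and the tissue contrasts, unchanged means the same direction and side of the threshold. The bud genotype and interaction values have no call. For them unchanged means the same direction and a shift of at most the gene's pooled SD within groups. CRC in apices passed without both Aatoe2_IL replicate 1 libraries (0.65), and UFO between Aatoe2_IL tissues then did not (-0.80). Leaving out each library in turn gave -1.07 to -0.75 for UFO and -0.96 to -0.62 for CRC between Aatoe2_IL tissues. Of 644 alternatives for list genes, added after the data were seen, 602 kept their call, 25 lost and 17 gained one.

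Counts of genes called moved more. The apex count of 215 was 400 without a filter, 557 by DESeq2, 129 on the compared libraries only, 835 without both Aatoe2_IL replicate 1 libraries, and 35 to 698 without single libraries. The bud count of 967 was 621 on the compared libraries, up to 1365 over the other settings and 410 to 1017 without single libraries. The interaction count of 202 was 565 by DESeq2, 43 without both Aatoe2_IL replicate 1 libraries and 40 to 391 without single libraries. The tissue counts of 2184 in wild type and 1107 in Aatoe2_IL were 1258 to 2455 and 629 to 1066 without single libraries. With the replicate block within genotype, the interaction count was 1986 and the tissue counts 4824 in wild type and 2378 in Aatoe2_IL; no block changed a call of UFO, CRC or KNATM. The causes were not tested. KNATM in apices is limited by its 17 to 33 reads per library.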
